A study of Mus musculus with 24 samples.

Results

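The regions described here were the bins of mouse chromosome 11 in a table of raw ChIP-seq read counts per 100 kb of genome. All rows of chromosome 11 were taken except the 6 bins from 120300001 to 120900000, which hold the Sirt7 region deleted in the knockout. This left 1215 of the 27268 bins in the table. Of these, 31 held no read in any library, 1184 held reads and 1183 passed the low-count filter and were tested. The cells were primary mouse embryonic fibroblasts (MEFs) of the strain C57BL6, female or male, and either wild type (WT) or SIRT7-KO, a genotype that lacks the sirtuin deacylase SIRT7. Every culture had received 5 Gy of X-rays and 30 min of recovery, in the WT controls as well, and no unirradiated sample was analysed here. Chromatin was immunoprecipitated with an antibody to the histone variant H2AX or to its phosphorylated form, gH2AX, and input chromatin was sequenced beside it. The 24 libraries formed 12 groups of 2, 1 for each sex, genotype and antibody or input. The labels do not say whether the replicates came from separate embryos or cultures, so p-values measure the spread between these samples, which may be technical. With the Sirt7 bins left out, the deletion was not checked in these libraries.

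H2AX is a variant of the core histone H2A that is present in part of the nucleosomes of every cell. Kinases of the ATM, ATR and DNA-PK family phosphorylate its tail next to DNA double-strand breaks, and the mark spreads from a break along the surrounding chromatin, where repair factors gather on it. Gene-rich chromosomes hold more open, early replicating chromatin than gene-poor ones. Chromosome 11 had 13.5 protein-coding genes per Mb, second among the autosomes and X after chromosome 7 with 14.2.

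Library totals ranged from 84.5 to 212 M reads for gH2AX, 66.9 to 250 M for H2AX and 92.4 to 269 M for input. The median bin of chromosome 11 held 3256 to 8182 reads in a gH2AX library, 2627 to 9636 in an H2AX library and 3259 to 9290 in an input library. The 2 replicates of every group differed by more than counting error allows, by a chi-square of 2.55 to 3.64 for each degree of freedom. The fitted coefficient of variation between replicates was 2.12% in gH2AX, 2.13% in H2AX and 1.85% in input libraries.

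The sequences below show the range of promoters in these bins, each 300 bases from 250 before to 50 after a transcript's start, from RefSeq on the GRCm38.p6 assembly. Capitals mark every CG dinucleotide, which is the same on both strands and does not overlap itself. The Tsen54 promoter (chr11:115814489-115814788, plus strand) lies in the bin with the second highest gH2AX to input ratio. Tsen54 encodes a subunit of the tRNA splicing endonuclease. The Gm11639 promoter (chr11:104780959-104781258, plus strand) lies in the lowest bin by that ratio that holds a promoter of the table, which ranked 20 from the bottom. The Gm36876 promoter (chr11:108980489-108980788, plus strand) starts the long noncoding transcript that runs into the bin with the highest gH2AX level, and itself lies in the bin before it. The 3 were chosen after the values were seen.
Tsen54: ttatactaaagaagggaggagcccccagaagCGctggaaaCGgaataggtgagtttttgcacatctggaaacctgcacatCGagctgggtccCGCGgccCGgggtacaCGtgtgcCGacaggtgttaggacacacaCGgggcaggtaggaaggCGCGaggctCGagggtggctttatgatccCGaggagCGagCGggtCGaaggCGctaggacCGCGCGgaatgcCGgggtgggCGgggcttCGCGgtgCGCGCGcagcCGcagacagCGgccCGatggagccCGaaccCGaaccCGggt
Gm11639: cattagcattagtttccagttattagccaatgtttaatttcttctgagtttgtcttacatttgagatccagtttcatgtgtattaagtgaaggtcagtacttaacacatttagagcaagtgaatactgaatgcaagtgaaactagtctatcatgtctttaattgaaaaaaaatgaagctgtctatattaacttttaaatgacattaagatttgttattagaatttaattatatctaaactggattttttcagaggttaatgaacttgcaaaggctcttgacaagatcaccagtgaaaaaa
Gm36876: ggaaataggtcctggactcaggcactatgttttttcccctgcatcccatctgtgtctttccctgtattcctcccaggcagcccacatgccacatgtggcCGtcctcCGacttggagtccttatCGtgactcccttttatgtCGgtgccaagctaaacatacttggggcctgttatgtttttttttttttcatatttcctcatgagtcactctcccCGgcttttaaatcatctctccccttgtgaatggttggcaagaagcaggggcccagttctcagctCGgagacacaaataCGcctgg
Tsen54 has 33 CG and 65.3% G and C, and 8.56% of the 32851 promoters in the table hold at least as many CG. Gm11639 has 0 CG and 29.3% G and C, a count that 100% of promoters reach. Gm36876 has 7 CG and 49.7% G and C, and 52.1% of promoters hold at least as many. Over the 607 chromosome 11 bins with a promoter, the mean CG number correlated weakly with the gH2AX to input ratio (Pearson r 0.19), a description over neighbouring bins that are not independent.

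The first question was how much of each mark chromosome 11 carried against input, with all sexes and genotypes averaged. Both H2AX and gH2AX were raised on chromosome 11, and gH2AX was raised less than H2AX. Chromosome 11 took 4.41% to 4.46% of autosomal reads in the 8 input libraries, 4.93% to 4.97% in the 8 H2AX libraries and 4.71% to 4.89% in the 8 gH2AX libraries. The 3 ranges did not overlap. As the log2 ratio of chromosome 11 reads to those of the other autosomes, gH2AX exceeded input by 0.12 and H2AX exceeded input by 0.16, while gH2AX fell below H2AX by 0.05. Each of these differences had an adjusted p of 0.000155 in an exact two-sided permutation test of 8 libraries against 8, adjusted over the 3 comparisons, which is the smallest value the test can give. Among the 19 autosomes chromosome 11 ranked 2 for both marks against input and 18 for gH2AX against H2AX.

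**Figure D1:**
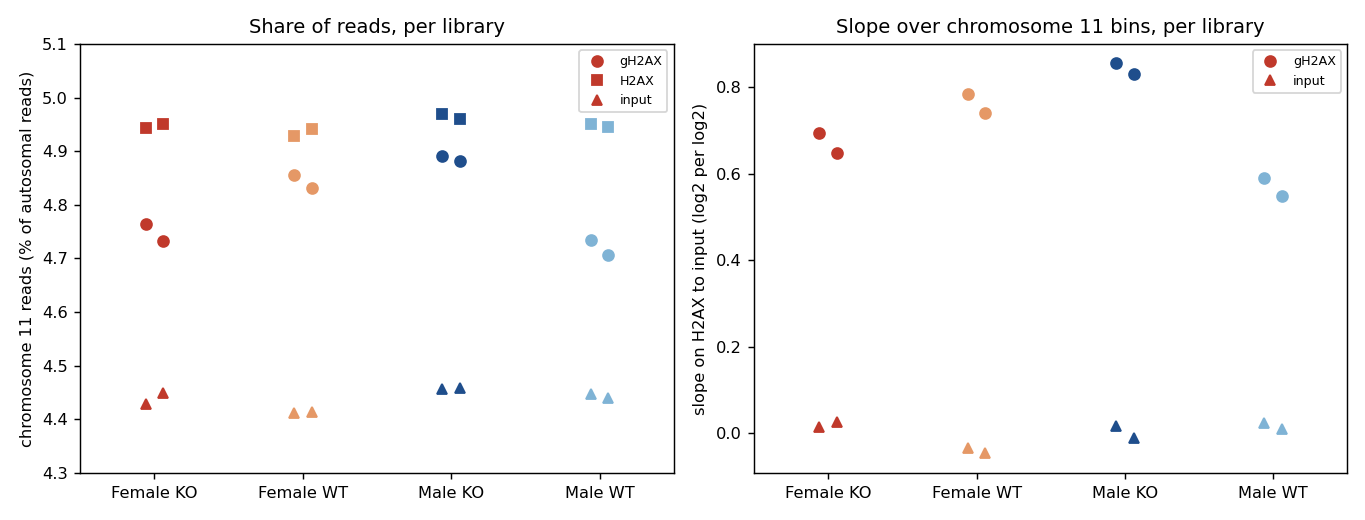
Each point is 1 library; the left panel gives the share of autosomal reads on chromosome 11 in percent, and the right panel the slope of the library's log2 level in chromosome 11 bins on the log2 ratio of H2AX to input. Input lies at 4.41% to 4.46%, below all gH2AX and H2AX libraries, and the gH2AX slopes run from 0.55 in a male WT library to 0.85 in a male KO library.

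Within gH2AX, the share of reads on chromosome 11 differed between the groups in opposite directions in the sexes. Female KO libraries had 4.77% and 4.73%, female WT libraries 4.86% and 4.83%, male KO libraries 4.89% and 4.88%, and male WT libraries 4.74% and 4.71%. The 2 groups of either sex did not overlap. The KO to WT difference was -0.03 in females and 0.05 in males on the log2 scale. With 2 libraries against 2 an exact permutation test cannot reach 0.05, so these are values with no test.

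Per bin, enrichment over input was calculated from a fit to all 24 libraries with edgeR's quasi-likelihood test, with p-values adjusted over the 25703 tested bins of chromosomes 1 to 19 and X. A bin was called when the adjusted p was under 0.05. For gH2AX to input, 696 of the 1183 bins (58.8%) were called higher and 358 (30.3%) lower, against 41.5% and 45.2% of all bins. For H2AX to input, 749 (63.3%) were higher and 324 (27.4%) lower, against 44.9% and 44.5% of all bins. For gH2AX to H2AX, 284 (24%) were higher and 568 (48.0%) lower, against 38.5% and 36.6% of all bins. The median log2 ratios were 0.09, 0.13 and -0.03 on chromosome 11, and -0.01, 0.00 and 0.00 over all bins. Chromosome 11 had the highest median of gH2AX to input of the 20 chromosomes, the second highest of H2AX to input after chromosome 7, and ranked 18 for gH2AX to H2AX.

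**Figure D2:**
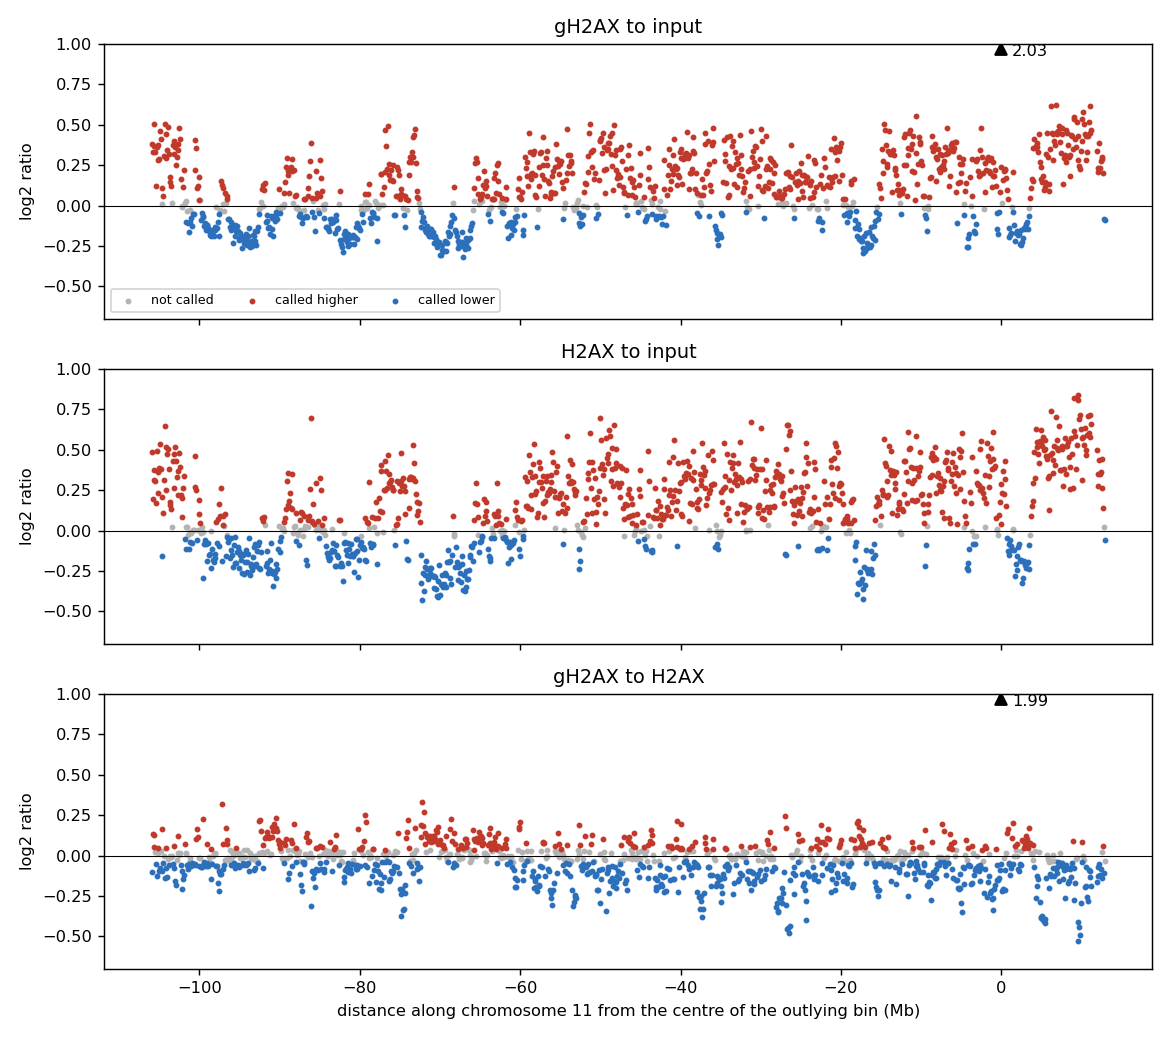
The 3 panels plot the log2 ratio of gH2AX to input, H2AX to input and gH2AX to H2AX in each chromosome 11 bin against its distance in Mb from the bin with the highest gH2AX level; red bins were called higher, blue lower and grey neither. That bin lies beyond the axis as a triangle at 2.03 for gH2AX to input and 1.99 for gH2AX to H2AX, and does not stand out for H2AX to input at 0.04.

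Both marks were higher in gene-rich than in gene-poor windows of 10 Mb. The window that starts at 10000001, with 23 protein-coding genes in 100 bins, had a median gH2AX to input log2 ratio of -0.13 and an H2AX to input ratio of -0.13. The window at 70000001, with 226 genes, had 0.20 and 0.27. The order was not strict, since the window at 90000001 had 204 genes and medians of 0.08 and 0.17, and the highest medians of the full windows, 0.30 and 0.45, were those of the window at 110000001 with 147 genes. Neighbouring bins resembled each other, with a Pearson r of 0.84 between gH2AX to input ratios 1 bin apart, 0.43 at 10 bins and 0.05 at 50 bins, so bins are not independent of each other.

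Split by the number of protein-coding genes whose midpoint lies in a bin, both ratios rose in order. A bin inside a long gene but without its midpoint is thus counted as having no gene. The 513 bins with no gene had medians of -0.05 for gH2AX and -0.05 for H2AX against input. The 296 bins with 1 gene had 0.13 and 0.16, the 139 with 2 genes 0.23 and 0.27, the 164 with 3 or 4 genes 0.28 and 0.31, and the 71 with 5 or more 0.30 and 0.33. On the other autosomes the gH2AX medians of the same classes were -0.09, 0.08, 0.15, 0.23 and 0.36, and the H2AX medians -0.11, 0.09, 0.17, 0.24 and 0.35. Chromosome 11 thus lay above the other autosomes in the first 4 classes and below them in the class with most genes, a difference that was not tested.

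**Figure D3:**
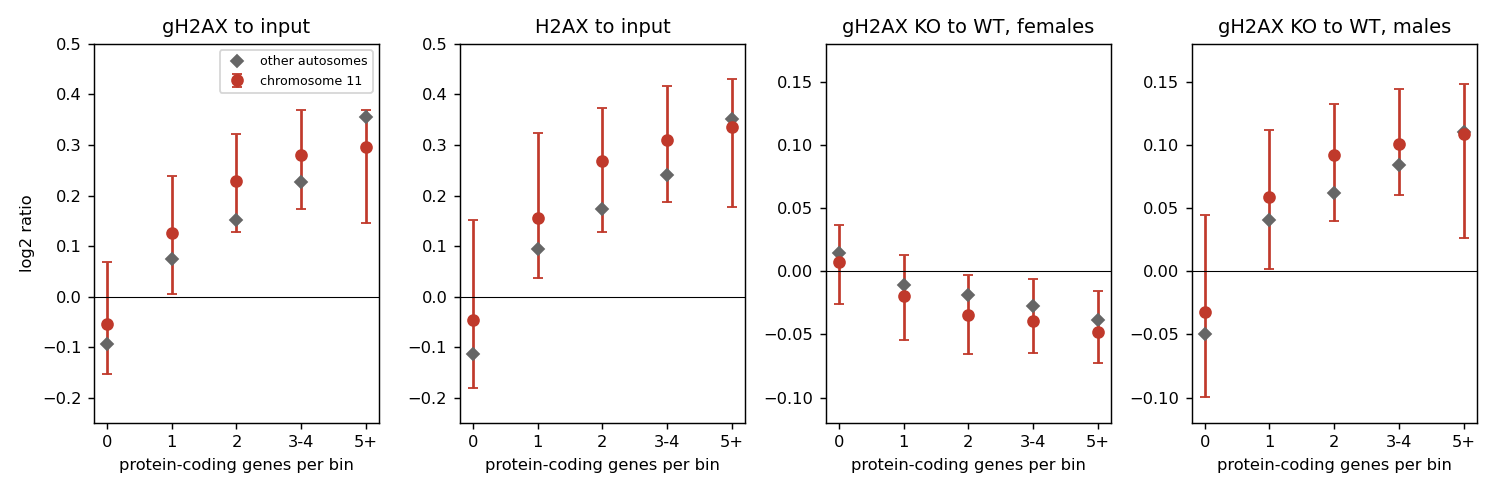
Medians of the log2 ratios and of the gH2AX KO to WT change by the number of protein-coding genes per bin, with each gene counted at its midpoint. Points are chromosome 11, with bars over the middle quartiles of bins, and diamonds are the other autosomes. The gH2AX to input median on chromosome 11 runs from -0.05 with no gene to 0.30 with 5 or more, and the male KO to WT change from -0.03 to 0.11.

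The bins with the highest and lowest ratios are given as a description, since rank chose them. After the bin at 109000001, treated below, the highest gH2AX to input log2 ratio was 0.62 at 115800001, which holds Tsen54, the unconventional myosin gene Myo15b, the cell polarity gene Llgl2 and the helicase gene Recql5. Its gH2AX level was 49.1 to 58.8 CPM, counts scaled to a common library size, in the 8 libraries, its H2AX level 55.0 to 57.3 and its input level 33.7 to 35.5. Neither mark overlapped input. The bins at 120000001 (Aatk, Cep131, Tepsin, Baiap2) and 115200001 (Tmem104, Fads6, Grin2c, Fdxr) also had 0.62, and the bin at 119200001 (Ccdc40, Tbc1d16, Gaa, Eif4a3) had 0.58. All 4 lie in the gene-rich distal end of the chromosome.

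Among the 5 lowest bins, those at 39000001, 39100001, 91700001 and 26900001 had -0.30, -0.30, -0.29 and -0.29 and hold no protein-coding gene. At 39000001, gH2AX was 25.1 to 30.7 CPM, H2AX 24.4 to 27.4 and input 33.9 to 36.4. Both marks lay below input in every library.

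H2AX to input peaked in Rbfox3, which encodes a neuronal splicing factor, with 0.84 in the bin at 118500001 and 0.81 at 118600001, and reached 0.82 at 118000001 (Dnah17, Pgs1). It was lowest, at -0.43, in the bin at 36800001 in Tenm2, a teneurin adhesion gene of neurons. These genes also held the lowest gH2AX to H2AX ratio and, after the bin at 109000001, the highest. At 118600001 in Rbfox3, H2AX was 52.2 to 57.1 CPM and gH2AX 36.4 to 39.8, with input at 29.9 to 32.8, a gH2AX to H2AX log2 ratio of -0.53. At 36800001 in Tenm2, H2AX was 26.7 to 30.4 CPM and gH2AX 35.2 to 37.8, with input at 37.9 to 40.4, a ratio of 0.33. The 3 ranges did not overlap in the Rbfox3 bin, and in the Tenm2 bin gH2AX lay between H2AX and input. Next lowest for gH2AX to H2AX were a further Rbfox3 bin at 118800001 (-0.49), the bin at 82500001 (-0.48) and the Tmem132e bins at 82300001 and 82400001 (both -0.45). Next highest were 11800001 with Ddc and Fignl1 (0.32), 37000001 in Tenm2 (0.27) and 29600001 with Rtn4 (0.25).

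The bin from 109000001 to 109100000 stood apart from the rest of the chromosome in gH2AX. Its gH2AX level was 174.6 and 169.5 CPM in female KO, 265.7 and 246.2 in female WT, 268.7 and 261.0 in male KO, and 169.8 and 161.1 in male WT. Its H2AX level was 48.2 to 56.9 CPM and its input level 49.2 to 54.3 over the same 4 groups. Female WT and male KO were high and female KO and male WT low, with no overlap, while all 8 gH2AX libraries lay above every H2AX and input library. The bin was 4.26 to 6.93 times the median of its 20 neighbours in gH2AX, 1.15 to 1.38 times in H2AX and 1.32 to 1.46 times in input. Its gH2AX to input ratio was 4.08-fold (log2 2.03, SE 0.016) and its gH2AX to H2AX log2 ratio 1.99, while H2AX to input was 0.04 with an adjusted p of 0.0151. The H2AX to input call was lost with DESeq2, at an adjusted p of 0.168.

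No protein-coding gene overlaps the bin. It holds part of the long noncoding gene Gm36876 (108980739 to 109034783), whose promoter is printed above, and the small nuclear RNA gene Gm24149 (109066984 to 109067090). The nearest protein-coding genes are Axin2, a scaffold of the Wnt pathway's beta-catenin destruction complex, 49.2 kb away, and Rgs9, a regulator of G protein signalling, 125.3 kb away. The 20 flanking bins had gH2AX to input log2 ratios of -0.19 to 0.24, so at 100 kb resolution the high level was that of 1 bin. Of all 25703 bins, 8 had a log2 ratio above 1 and this was the only one on chromosome 11. One other bin reached its level, from 39800001 to 39900000 on chromosome 17.

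The KO to WT contrast of this bin went opposite ways in the sexes. gH2AX was lower in female KO by a log2 change of -0.57 (SE 0.030, adjusted p = 2.24e-80, edgeR) and higher in male KO by 0.68 (SE 0.029, adjusted p = 3.67e-113). The difference between the sexes was -1.25 (SE 0.042, adjusted p = 1.35e-192). H2AX did not pass the test there, with -0.09 in females (adjusted p = 0.797) and -0.08 in males (adjusted p = 0.495), nor did input, with 0.04 (adjusted p = 0.810) and -0.02 (adjusted p = 0.907). Relative to H2AX, the gH2AX change was -0.49 in females (adjusted p = 5.78e-19) and 0.76 in males (adjusted p = 2.69e-38). None of the 20 flanking bins was called in females and 7 were in males, against 0.93% and 48.9% of chromosome 11 bins. The chromosome 17 bin had the same order of groups, with 2280 and 2101 CPM in female KO, 3699 and 3330 in female WT, 3823 and 3610 in male KO and 2161 and 2059 in male WT.

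**Figure D4:**
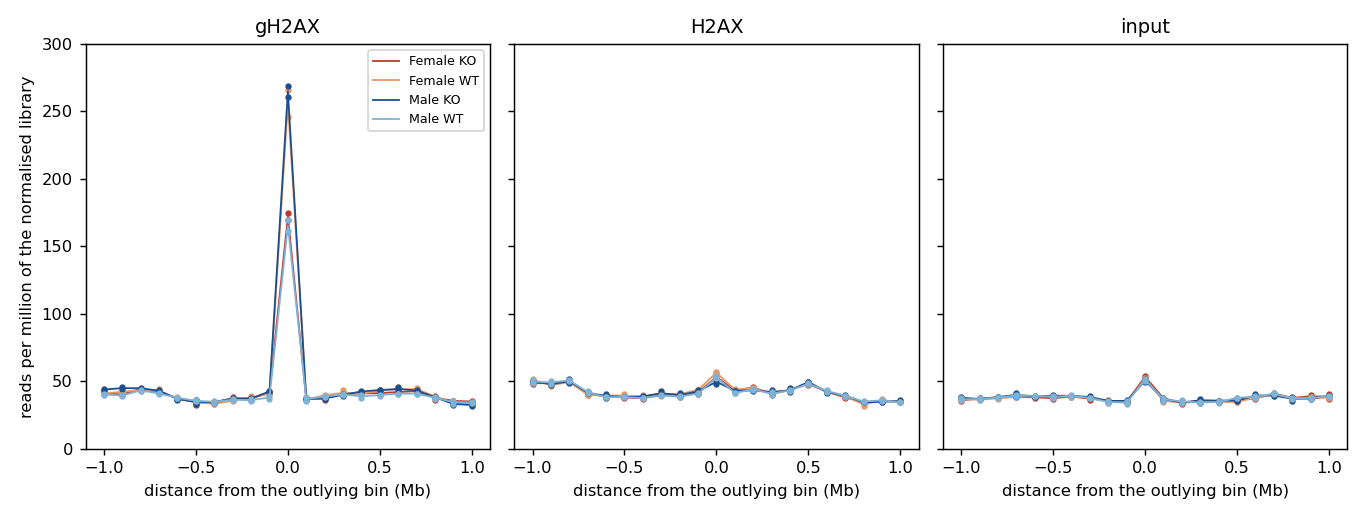
CPM in the bins within 1 Mb of the bin at 109000001 for the 12 groups; lines join group means and points are libraries. In gH2AX that bin reaches 161.1 to 268.7 CPM and its 20 neighbours reach at most 45.9, while H2AX reaches at most 56.9.

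Across the chromosome, male KO libraries had relatively more gH2AX reads than male WT in gene-rich bins and relatively fewer in gene-poor bins. Levels were scaled to library size, so they give the distribution of gH2AX over bins and not its total amount. With each library's trend on enrichment removed, 20 bins were called, 8 higher and 12 lower, as given below. Of the 1183 bins, 406 (34.3%) were called higher and 173 (14.6%) lower, against 22.4% and 22.2% of all bins. The median log2 change was 0.04 on chromosome 11, the highest of the 20 chromosomes, and -0.01 over all bins. The changes were small, with a median absolute log2 change of 0.13 in the called bins. With genes counted at their midpoint, bins with no protein-coding gene had a median of -0.03 (71 higher and 145 lower). Those with 1 gene had 0.06 (112 and 14) and with 2 genes 0.09 (76 and 3). Those with 3 or 4 genes had 0.10 (103 and 9) and with 5 or more 0.11 (44 and 2). The window at 10000001 had 2 bins higher and 43 lower, and that at 110000001 52 higher and 9 lower.

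The called bins formed stretches. The 4 longest higher stretches in males lay in gene-rich segments. The longest ran over 16 bins and 65 genes from 115100001 to 116700000 and holds Rnf157, a ubiquitin ligase gene, Grb2, an adaptor of growth factor receptors, and Rab37, a small GTPase gene. In its leading bin at 116200001 (Srp68, Evpl, Exoc7), gH2AX was 53.7 and 52.9 CPM in male KO and 46.6 and 44.9 in male WT, with no overlap, a log2 change of 0.22 (SE 0.035, adjusted p = 5.79e-08). In female KO the same bin had 50.4 and 49.2 CPM and in female WT 51.6 and 50.1, which overlap. The second ran over 15 bins from 3800001 to 5300000 (Mtmr3, Ap1b1, Hormad2). Its leading bin at 4900001 had 50.0 and 52.0 CPM in male KO and 44.6 and 45.5 in male WT (log2 0.18, adjusted p = 5.96e-06). A stretch of 13 bins from 119000001 up to the left-out Sirt7 bins holds Rptor, the mTORC1 scaffold, and Rnf213. Its leading bin at 119800001 had 51.6 and 50.9 CPM in male KO and 45.3 and 44.0 in male WT (log2 0.20, adjusted p = 1.1e-06). The last, also of 13 bins, from 101200001 to 102500000, holds Brca1 and the deacetylase gene Hdac5. Its leading bin at 101800001 contains Meox1, with 45.1 and 44.2 CPM in male KO and 39.0 and 38.8 in male WT (log2 0.20, adjusted p = 1.71e-06). Male KO and WT did not overlap in any of these 4 leading bins.

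Among the longest lower stretches, 3 are described. The longest covered 17 bins from 14600001 to 16300000 (Vstm2a, Pom121l12), with 25.8 and 25.9 CPM in male KO and 29.5 and 30.2 in male WT in its leading bin at 14800001 (log2 -0.21, adjusted p = 4.63e-05). A stretch of 14 bins from 38900001 to 40300000 holds no protein-coding gene. Its leading bin at 39000001 had 25.1 and 25.6 CPM in male KO, 30.5 and 30.7 in male WT, 28.2 and 30.6 in female KO and 27.1 and 26.6 in female WT. Male KO was lowest and male WT high, and the female groups went the other way, by a log2 change of 0.13 that was not called. The male change was -0.27 (SE 0.044, adjusted p = 8.66e-08). The 10 bins from 73300001 to 74300000 hold Zfp616, Zfp735, Aspa and olfactory receptors. Their leading bin at 73800001 changed by -0.18 (adjusted p = 0.00019).

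In females far fewer bins passed. gH2AX was called higher in KO in 1 of 1183 bins and lower in 10, against 0.416% and 0.595% of all bins, and 7 were called with DESeq2. At an unadjusted p under 0.05, 200 of the 1183 bins passed. The median change of -0.01 was the lowest of the 20 chromosomes. The bin called higher, at 15900001, had 32.4 and 33.1 CPM in female KO and 28.5 and 30.4 in female WT (log2 0.15, adjusted p = 0.0439). Besides the bin at 109000001, the stretches called lower were led by 84900001 with Usp32, Myo19 and Car4 (log2 -0.16, adjusted p = 0.00365), 67800001 with Usp43 and Dhrs7c (-0.14, adjusted p = 0.0294) and 88200001 with Mrps23 and Ccdc182 (-0.13, adjusted p = 0.0473). At 84900001, gH2AX was 42.0 and 40.5 CPM in female KO and 45.0 and 47.2 in female WT, with no overlap. The female count rested on single libraries, with 1 call without KO replicate 2 and 4 without WT replicate 1.

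**Figure D5:**
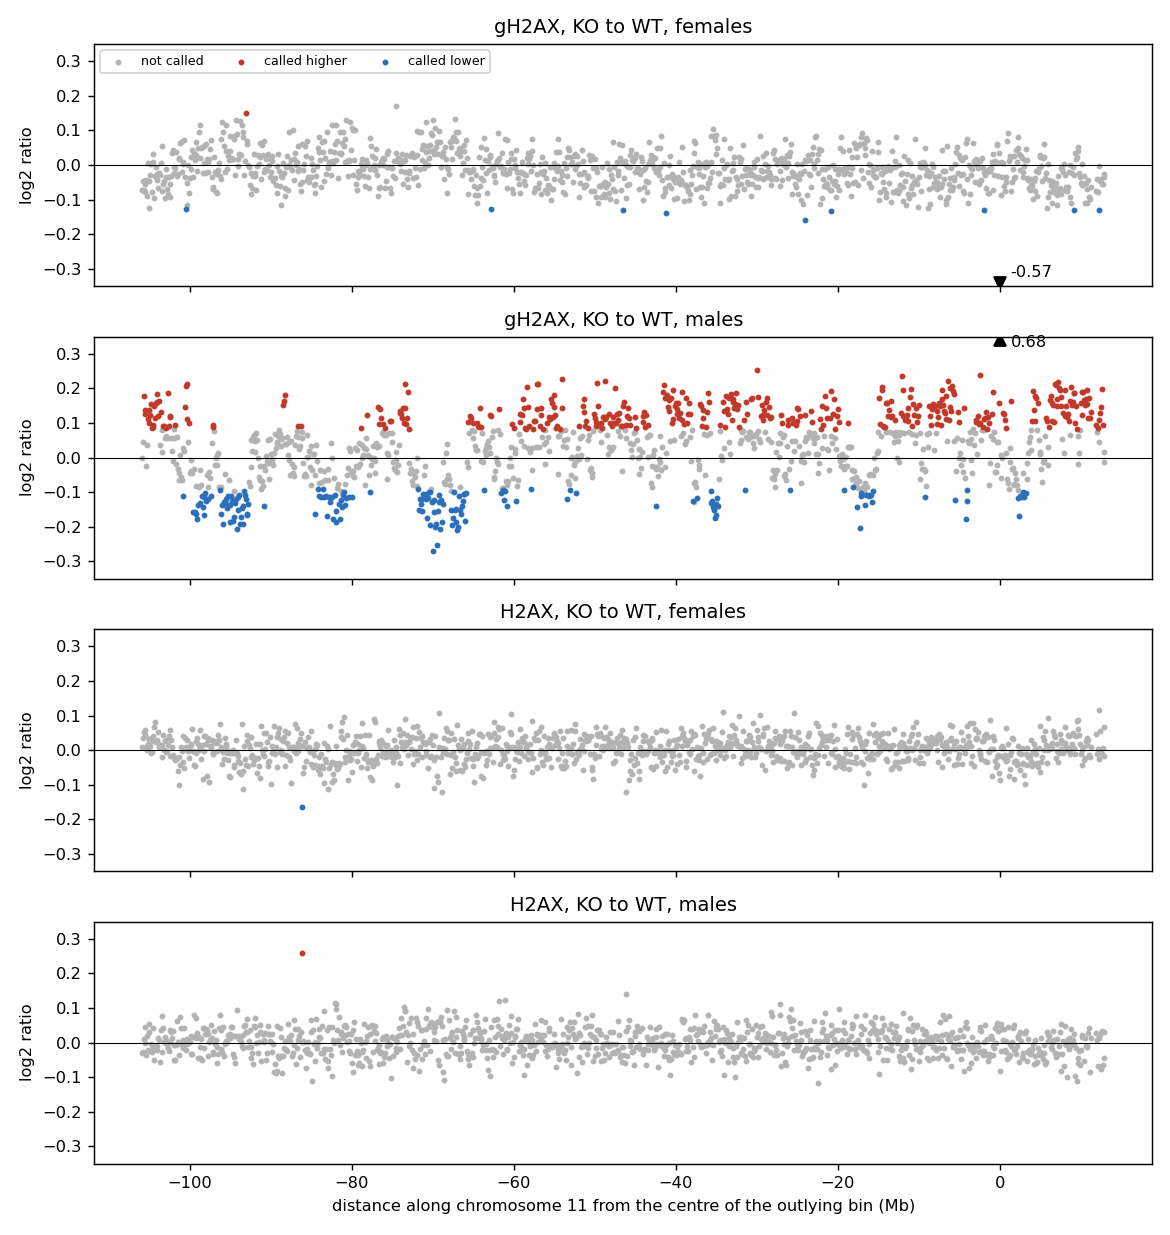
The log2 KO to WT change of gH2AX (the first and second panels) and H2AX (the last panels) in each chromosome 11 bin, in females and males, against distance in Mb from the bin at 109000001; red bins were called higher, blue lower and grey neither. Male gH2AX has 406 red and 173 blue bins, female gH2AX 1 and 10, and H2AX 1 called bin in either sex; triangles mark the gH2AX values of -0.57 and 0.68 beyond the axis.

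The sex difference of the gH2AX change was tested itself. The KO change in females minus that in males was called above 0 in 140 bins and below 0 in 390, against 20.1% and 20.4% of all bins, with a median of -0.06 on chromosome 11. The longest stretches below 0 were 17 bins from 115000001 to 116700000, 15 from 101000001 to 102500000, 13 from 119000001 up to the left-out bins and 10 from 75800001 to 76800000 with Abr, Nxn and Rph3al. In the Rph3al bin at 75800001, gH2AX was 45.5 and 45.4 CPM in female KO, 47.0 and 49.5 in female WT, 49.1 and 47.0 in male KO and 41.2 and 43.2 in male WT. KO lay below WT in females and above it in males, a difference of -0.27 (SE 0.050, adjusted p = 3.51e-06). The female change by itself was -0.09 and was not called. The longest above 0 covered the 14 bins from 38600001 to 40000000. Female and male changes share no library, and over the 1183 bins they had a Pearson r of -0.57 and a Spearman rho of -0.54. On the other autosomes r was -0.51. Bins share libraries, depth and base composition, so these values are descriptions.

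The male and female changes were ordered by H2AX enrichment, a measure from other libraries. Bins were ranked by H2AX to input and split into quintiles of 236 or 237. The male KO to WT medians were -0.10, -0.01, 0.05, 0.08 and 0.12 from the lowest to the highest quintile, with 9 higher and 122 lower calls in the lowest and 174 and 0 in the highest. The female medians were 0.03, -0.01, -0.02, -0.03 and -0.04. Over bins, r with H2AX to input was 0.67 for the male change and -0.42 for the female change. On the other autosomes these were 0.63 and -0.42.

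The steepness of the gH2AX profile differed between libraries in the same order of groups. The slope of a library's log2 gH2AX level on log2 H2AX to input, over chromosome 11 without the bin at 109000001, was 0.69 and 0.65 in female KO, 0.78 and 0.74 in female WT, 0.85 and 0.83 in male KO and 0.59 and 0.55 in male WT. Input libraries had slopes of -0.05 to 0.03. On the other autosomes the gH2AX slopes were 0.62 and 0.58, 0.72 and 0.67, 0.79 and 0.77, and 0.55 and 0.51 for the same groups. The steepness moved with genotype in both sexes, so the 2 cannot be told apart in this design, and its part in the bin calls was not tested. With each library's smooth trend on the antibody to input ratio removed, 20 chromosome 11 bins were called in males, 8 higher and 12 lower, where 1.66% of all bins were called. With the input change subtracted, 268 were called in males, 187 higher and 81 lower, where 19.6% of all bins were called. At 109000001 the male change was no longer called with the trend removed (adjusted p = 0.94), and the female change was -0.18 (adjusted p = 1.54e-08). This bin was itself in the fit of the trend, and only 8 of all bins have a gH2AX to input log2 ratio above 1. That setting therefore cannot separate the bin's change from the trend. For the sex difference, 10 bins were called with the trend removed and 325 with the input change subtracted. The share of male calls that were higher was 70.1% in the first fit and 40% with the trend removed, and that of the sex difference above 0 was 26.4% and 70%.

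Few bins passed in H2AX or input. In H2AX, 1 of 1183 bins was called in females, lower, and 1 in males, higher, against 0.152% and 0.191% of all bins. In input, 0 were called in either sex with edgeR, against 0.183% and 0.222% of all bins, while 85 and 81 had an unadjusted p under 0.05 and DESeq2 called 0 and 1. The H2AX call was the same bin in both sexes, from 22900001 to 23000000, with Commd1, a regulator of NF-kB and copper handling, Cct4, a chaperonin subunit gene, and Zrsr1, an imprinted gene within Commd1. Its H2AX level was 67.0 and 71.2 CPM in female KO, 73.0 and 81.3 in female WT, 69.9 and 83.1 in male KO and 61.5 and 64.8 in male WT. Its input level was 41.8 to 45.5 CPM and its gH2AX level 54.4 to 59.3 in all groups. KO was below WT in females and above it in males, and the replicates lay furthest apart in male KO. The H2AX change was -0.16 in females (SE 0.038, adjusted p = 0.0292) and 0.26 in males (SE 0.039, adjusted p = 2.68e-06), and the sexes differed by -0.42 (SE 0.054, adjusted p = 1.2e-08). gH2AX did not pass there, with 0.06 (adjusted p = 0.416) and 0.07 (adjusted p = 0.0688). Neither H2AX call held with DESeq2 or with the input change subtracted.

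Gene groups were read through the bin that holds most of each gene, so their values are those of 100 kb and not of the gene alone. The counts for male KO stand beside the 34.3% of chromosome 11 bins called higher and 14.6% called lower. Each list bin was chosen by a gene, and bins with genes were called higher more often. Called higher and lower were 112 and 14 of 296 bins with 1 gene, and 76 and 3 of 139 with 2. They were 103 and 9 of 164 bins with 3 or 4 genes, and 44 and 2 of 71 with 5 or more. A share close to any of these is no result about a group. In males the break repair genes lay in bins that rose or did not pass. Of 19 bins 11 were called higher and 0 lower in KO, with a median of 0.09 against 0.04 over chromosome 11. The bin of Rad50, the ATPase of the MRN complex that binds broken ends, had 49.7 and 47.3 CPM in male KO and 43.1 and 42.9 in male WT (log2 0.17, adjusted p = 3.15e-05). It also holds the cytokine genes Il4 and Il13. The bin of Brca1, a homologous recombination gene, had 47.0 and 47.6 CPM in male KO and 43.9 and 40.7 in male WT (log2 0.16, adjusted p = 8.98e-05). Male KO lay above male WT in both bins without overlap. The bins of Aurkb, a mitotic kinase, and Top2a, a topoisomerase, changed by 0.16 and 0.15. Against input, gH2AX was called higher in 15 of the 19 break repair bins and lower in 1, and H2AX in 16 and 2. Over chromosome 11, 58.8% of bins were higher for gH2AX and 63.3% for H2AX. Of the 296 bins with 1 gene 207 and 223 were higher, and of the 164 with 3 or 4 genes 149 and 150. The break repair counts, in male KO and against input, are therefore no result about the group.

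Of the 7 bins of ribosomal protein genes 4 were higher in male KO and 0 lower, with a median of 0.11. The Rpl19 bin had 51.4 and 51.5 CPM in male KO and 45.1 and 44.6 in male WT (log2 0.20, adjusted p = 9.32e-07), and Rpl26, Rpl27 and Rpl23 lay in the others. Of the 13 bins of fibroblast genes 8 were higher and 0 lower, with a median of 0.09, among them those of Igfbp4, which binds insulin-like growth factors and shares its bin with Top2a (0.15), of the procollagen protease gene Adamts2 (0.15) and of Pmp22 (0.14). The bin of Col1a1, a main collagen of these cells, had 0.08 with an adjusted p of 0.0667 and was not called. Against input, gH2AX was called higher in 12 of the 13 fibroblast bins. It was also higher in 58.8% of chromosome 11 bins and in 149 of the 164 bins with 3 or 4 genes.

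The lists of genes of other cell types had mixed counts. Of 14 bins of neuronal genes 4 were higher and 5 lower in male KO. Of 21 bins of haematopoietic genes 13 were higher and 1 lower, with a median of 0.10. The bin of Itga2b, a platelet integrin gene, led with 0.18 (adjusted p = 1.08e-05). These lists hold genes of neurons and blood cells, and reads per bin do not measure whether a gene is expressed.

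The olfactory receptor clusters, 83 genes in 29 bins, had 3 bins higher and 11 lower in male KO with a median of -0.06. The bin of Olfr391 to Olfr394 had 31.0 and 30.5 CPM in male KO and 33.9 and 35.6 in male WT. In these bins H2AX and gH2AX parted. H2AX to input was called higher in 18 bins and lower in 5, against 63.3% and 27.4% of chromosome 11 bins. gH2AX to input was higher in 12 and lower in 15, against 58.8% and 30.3%. gH2AX to H2AX was higher in 0 and lower in 23, against 24% and 48.0%, with a median of -0.13 against -0.03 over chromosome 11. The type I keratin cluster, 48 genes in 11 bins, also had a low gH2AX to H2AX ratio, with 1 bin higher and 9 lower and a median of -0.12. The zinc finger bins had 1 higher and 10 lower of 14 (median -0.11), and the skeletal myosin bins 0 and 3 of 4 (-0.10). The Hoxb bins had 0 and 2 of 3 (-0.09). Fibroblast bins, with 6 higher and 3 lower of 13, and imprinted bins, with 3 and 1 of 4, went the other way. The male KO change of the keratin cluster was called in 1 bin, lower, at Krtap4-8 and Krtap4-9 (log2 -0.12, adjusted p = 0.0108).

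The male KO counts of the break repair, ribosomal protein, fibroblast and haematopoietic lists were near those of bins with several genes. Of bins with 2 genes 76 of 139 were higher, and of those with 3 or 4 genes 103 of 164. These list counts are therefore no result about the groups. The remaining lists had male KO counts close to the chromosome 11 shares of 34.3% higher and 14.6% lower, or few bins. Of 14 zinc finger gene bins 6 were higher and 2 lower in male KO, with Zfp207, a mitotic spindle factor gene, at 0.17 and Zfp616 at -0.17 (adjusted p = 0.000396). Zfp616 lies in the olfactory cluster's segment and shares its bin with Olfr139. Of the 4 bins of imprinted genes 2 were higher, those of Ddc (0.10, adjusted p = 0.0199) and the growth factor receptor adaptor Grb10 (0.09, adjusted p = 0.034). Of 3 Hoxb bins 1 was higher, and of 4 bins of the skeletal myosin cluster 0 were called. In females 0 bins of any of these lists were called for gH2AX with edgeR or DESeq2. At an unadjusted p under 0.05, the female counts were 3 of 19 break repair bins, 2 of 13 fibroblast bins and 3 of 29 olfactory bins, where 16.9% of all chromosome 11 bins passed. With the input change subtracted, where 187 of the 1183 bins were higher and 81 lower in males, the higher bins were 4 of 19 for break repair, 3 of 7 for ribosomal proteins, 1 of 13 for fibroblast and 7 of 21 for haematopoietic genes. The olfactory clusters then had 0 of 29 higher and 6 lower, the zinc finger bins 4 of 14 higher and 1 lower, the neuronal bins 3 of 14 higher and 3 lower, and the keratin and imprinted bins 0 called. With the trend on enrichment removed, 0 bins of these lists were called higher in males, and 1 olfactory and 1 neuronal bin were called lower.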

How the data were processed

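Chromatin from 24 libraries was analysed, in 12 groups of 2 taken from the labels. The authors deposited raw read counts per 100 kb bin. Per the submitters' processing notes, the tools were Bowtie2 2.2.9 on mm10, Trimmomatic 0.36, MACS2 2.2.7.1, SAMtools 0.1.19, FastQC 0.11.3 and deepTools 2.4.2. How duplicate and multiply mapped reads were treated is not given in the sources used here. A further 24 columns of the table match no labelled sample and were not used. Depth is given in the report, and intervals are those of the fits. Counts were tested as deposited with edgeR 4.0.16 in R 4.3.3 (filterByExpr, TMM factors from autosomal bins, quasi-likelihood F test, a mean per group, Benjamini-Hochberg adjustment over all tested bins of chromosomes 1 to 19 and X). KO was compared with WT within each sex from the 8 libraries of an antibody or input, and ratios came from all 24. CPM are counts scaled to library size. Chromosome shares were compared by exact permutation. DESeq2 1.42.0, other scaling factors, no filter, a replicate block, subtraction of the input change, removal of each library's smooth (lowess) trend on the antibody to input ratio and leaving out each library were alternatives. The gH2AX fit was tested on data simulated from its own estimates, for KO against WT in females only. The H2AX, input and 24-library fits were not tested in this way.

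The members and lists were chosen with earlier results of these data known. The bins named are the bin at 109000001, the 5 highest and 5 lowest bins of each ratio, the 4 longest called stretches of each contrast and direction with the bin of largest change, and the list members with the largest changes. Genes and promoters came from the RefSeq tables for GRCm38.p6. The sequence of the bin at 109000001 was not used here. Some bins that this rule names are not reported here.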

Additional observations from a re-analysis of the deposited data

Results flagged for a closer look

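The gH2AX change from WT to KO differed between females and males by a test of the difference itself in 17 bins that led a called stretch, and the H2AX change in 1. All values are the log2 change in females minus that in males, from edgeR with adjustment over all bins. These bins were chosen for their change, so their signs say nothing of other bins. The bins at 15200001, 73600001, 75800001, 102400001 and 115800001 entered only through this same test, so their passing it was fixed by the choice. The others led a stretch of a KO to WT change, which enters the difference. With 2 libraries a group no library was tested for lying apart from its group.

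The bin at 109000001 had the largest difference, -1.25, with gH2AX lower in female KO and higher in male KO. The difference was below 0 in 10 other bins. It was -0.23 at 4900001 (Ap1b1), -0.27 at 75800001 (Rph3al), -0.29 at 102400001 (Itga2b), -0.28 at 115800001 (Tsen54), -0.25 at 116200001 (Srp68), -0.31 at 119800001 and -0.15 at 101800001 (Meox1), and, in the bins that led the female calls, -0.28 at 84900001 (Usp32), -0.15 at 67800001 (Usp43) and -0.19 at 88200001 (Mrps23).

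The difference was above 0 in 6 bins. It was 0.40 at 39000001, 0.30 at 14800001, 0.32 at 15200001 and 0.27 at 15900001. In bins of olfactory receptor genes it was 0.25 at 73600001 (Olfr384) and 0.25 at 73800001 (Olfr391). Of the 29 bins of all olfactory receptor clusters, 8 were called above 0 and 2 below. The shares were 11.8% and 33.0% on chromosome 11, and 20.1% and 20.4% of all bins. H2AX differed by -0.42 at 22900001 (Commd1, Zrsr1), where the gH2AX difference was -0.01 with an adjusted p of 0.847.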

How the results depend on the processing

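Same-numbered KO and WT replicates of the same antibody or input and sex did not deviate together (r of -0.04 to 0.09 over bins). Their numbers were therefore not taken to pair KO with WT. These values do not cover gH2AX, H2AX and input libraries of the same number, which the main share tests and ratio fits treated as unpaired. Counts of called chromosome 11 bins are given in place of 579 for gH2AX in males, 11 in females, 530 for the sex difference, 1 for H2AX in each sex and 0 for input. With a replicate block female gH2AX had 17 calls, male H2AX 2 and male input 1, and it moved no other count by over 1.5 times (602 in males). With the input change subtracted they were 268, 4 and 325 for gH2AX in males, in females and for the sex difference, and 0 for H2AX in each sex. With the trend removed they were 20, 1 and 10, and 2 for H2AX in males. With DESeq2 female gH2AX had 7, H2AX 0 in each sex and male input 1. Without the low-count filter H2AX had 2 in males. The cause of these changes was not tested. Leaving out 1 library at a time gave 387 to 434 for gH2AX in males, 1 to 12 in females, 415 to 497 for the sex difference, 0 to 1 for H2AX in females, 1 to 17 in males (17 without KO replicate 1), 0 to 0 and 0 to 2 for input in females and males, and 1031 to 1046, 1058 to 1073 and 817 to 845 for gH2AX to input, H2AX to input and gH2AX to H2AX. The bin at 109000001 changed sign in males with the trend removed, from 0.68 to -0.00635 (adjusted p = 0.94). Of all bins, 8 have a gH2AX to input log2 ratio above 1. The bin was itself in the fit of the trend, so that setting cannot separate its change from the trend. Shares without that bin differed by 0.11, 0.16 and -0.05, and leaving out a library gave 0.11 to 0.12, 0.16 to 0.17 and -0.05 to -0.04. Of 998 values of named bins under all alternatives, 949 kept their direction and side of the threshold. Most of these values came from fits that left out 1 library. Other scaling factors, no filter and the block changed none of the 60 named results. With the trend removed, 7 named results kept direction and side, 19 lost the call and 1 reversed. With the input change subtracted 22 kept them and 5 lost the call, and with DESeq2 53 kept them and 3 lost the call.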
